A study of Mus musculus with 17 samples.

Results

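Endothelial cells of mouse bone marrow were compared between 4 KO and 4 WT libraries collected 2 weeks after tamoxifen, the 8 libraries of 17 in the series that carry that time label. The libraries were taken by their labels, as all KO and all WT libraries whose time is 2 weeks, and the comparison runs across all genes. Earlier results of these data were known when the libraries and the gene lists were chosen. Per the labels, the line (Cdh5:CreERT2-Eng f/f) carries CreERT2, a Cre that tamoxifen activates, under the endothelial Cdh5 promoter, with a floxed Eng allele in which exons 5 and 6 lie between loxP sites. All animals of both genotypes were labelled as injected with tamoxifen, which was given at 8 weeks of age, and the labels do not say whether WT animals carried Cre. Each genotype had 2 female libraries, f1 and f4, and 2 male libraries, m2 and m3, and the same numbers occur in both genotypes. Cells were sorted from crushed long bones as CD45-, Ter119-, CD31+ and Sca1+ (the design text lists the gate without Sca1), and RNA was sequenced with SmartSeq2, which amplifies full-length polyadenylated RNA without molecular identifiers. The labels do not state that each library is 1 animal, so p-values measure the spread between these libraries.

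Endoglin, the product of Eng, is a co-receptor on endothelial cells that presents BMP9 and BMP10 to the receptor ALK1 (Acvrl1) paired with BMPR2. The receptors phosphorylate SMAD1 and SMAD5, which enter the nucleus with SMAD4 and induce targets such as the Id genes and Smad6 and Smad7. Loss of ENG or ACVRL1 function causes hereditary haemorrhagic telangiectasia, in which arteries connect directly to veins, and the pathway is known for holding back sprouting and for arterial and venous identity.

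The deleted stretch is shown because it sets what the count of Eng can and cannot report. In the 15-exon Eng transcript of the GENCODE M21 annotation (GRCm38, plus strand), exon 5 lies at chr2:32672218-32672383 (166 bases) and exon 6 at chr2:32672837-32672957 (121 bases), both coding. The junction line joins the last 30 bases of exon 4 to exon 7, as a transcript lacking exons 5 and 6 would, with the first in-frame stop codon in capitals.
Eng exon 5: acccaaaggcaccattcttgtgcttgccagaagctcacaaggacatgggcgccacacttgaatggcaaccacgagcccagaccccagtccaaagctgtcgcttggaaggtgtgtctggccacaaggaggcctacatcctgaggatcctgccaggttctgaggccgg
Eng exon 6: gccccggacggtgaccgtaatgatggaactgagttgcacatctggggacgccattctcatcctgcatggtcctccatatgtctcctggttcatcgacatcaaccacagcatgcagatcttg
Eng exon 4 joined to exon 7: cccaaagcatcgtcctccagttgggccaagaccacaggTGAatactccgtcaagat
Exons 5 and 6 together hold 287 bases, which leaves a remainder of 2 after division by 3. The reading frame is therefore lost, and the stop falls after 179 codons, beginning at base 9 of exon 7, where the annotated frame has 653 codons. Both exons make up 8.39% of the 3422 bases of this transcript. The deposited counts are per gene, so reads from the remaining exons of a deleted allele still count for Eng.

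Eng (ENSMUSG00000026814, chr2:32646595-32682669) stood at 1116, 1083, 705 and 1307 CPM (counts per 1000000 counts of the library) in WT f1, f4, m2 and m3. The KO libraries stood at 225, 266, 347 and 259 CPM in the same order, which is kept throughout. The genotypes did not overlap, with m2 the lowest WT and the highest KO library. WT averaged 1053 ± 252 CPM and KO 274.3 ± 51.8 (SD over 4 libraries each), and the two-sided exact permutation test over 70 assignments gave p = 0.0286, the smallest this design allows. In edgeR the log2 fold change was -1.96 (SE 0.249), with an unadjusted p of 0.000107 and a Benjamini-Hochberg adjusted p of 0.612. It was -2.20 in females alone and -1.71 in males alone. Fpgs shares exonic bases with Eng, so reads from that stretch may belong to either gene.

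The gate markers Pecam1 and Ly6a and the endothelial gene Cdh5 were present in all 8 libraries. Pecam1, which encodes CD31, stood at 763, 1164, 794 and 1269 CPM in WT and at 990.3, 688, 988 and 1009.8 in KO, and the genotypes overlapped (log2 fold change -0.13, SE 0.219). Cdh5, whose promoter drives the Cre, stood at 312, 241, 293 and 190.1 CPM in WT and at 323, 199, 193 and 199.5 in KO (log2 fold change -0.19, SE 0.208, and -0.34 to -0.07 without 1 library). Ly6a, which encodes Sca1, stood at 1481 to 1823 CPM in KO and 1539 to 1774 in WT. None of these 3 genes differed between genotypes beyond the spread of the libraries. Of the 9 endothelial markers listed beside Eng, 7 were below 0 with a median of -0.17. With Eng included, the median of the 10 markers was -0.18, and -0.43 without KO m2 and m3. Tie1 and Esam were lower at an unadjusted p under 0.05, against 1.98% of all genes counted in every library. The 9 genes summed to 5663, 6788, 5375 and 5905 CPM in WT and to 5484, 4748, 5506 and 5195 in KO, and the genotypes overlapped. The part of this difference in the other results was not tested.

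**Figure D1:**
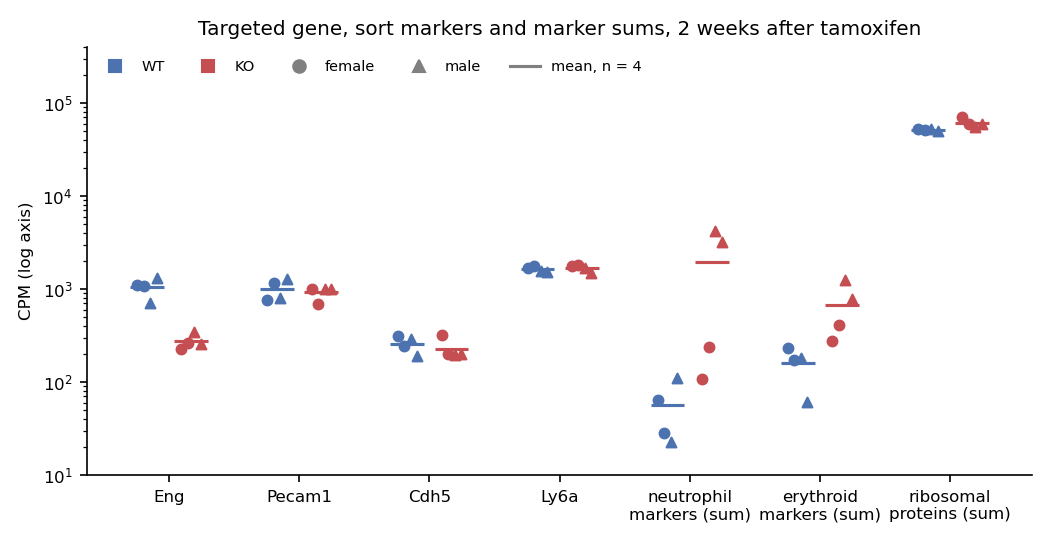
Each point is 1 library at 2 weeks, WT in blue and KO in red, with circles for females and triangles for males; the y axis is CPM on a log scale and the line is the mean of 4 libraries. Eng is lower in all 4 KO libraries, the gate markers overlap, and the neutrophil sum is highest in KO m2 and m3 at 4244 and 3192 CPM.

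Library depth and other cells set limits on all that follows. The 8 libraries held between 2.67e+07 and 4.09e+07 counts, with means of 3.73e+07 in WT and 3.17e+07 in KO (two-sided exact permutation p = 0.114), and 10886 to 13583 genes with a count. Neutrophil markers summed to 22.6 to 110 CPM in WT and 106.9 in f1, 238 in f4, 4244 in m2 and 3192 in m3 of KO, with 2 of the 12 markers at 0 in all WT libraries and none at 0 in all 8. Erythroid markers summed to 61.4 to 233 CPM in WT and 278, 414, 1240 and 773 in KO, and macrophage markers to 43.1 to 107 CPM in WT and 96.9, 91.2, 467 and 387 in KO. Haematopoietic progenitor markers reached at most 30.9 CPM, in KO m2. Values without KO m2 and m3 are given beside leading genes of other blood cells and beside group medians that they move by over 1.5 times. In bulk RNA fewer cells of a type cannot be told apart from less RNA per cell.

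Genes were read in 2 classes because zeros are frequent in these libraries. Of 18936 genes with a count in any of the 8 libraries, 6526 had a count in every one, and 6050 of these passed the filter on low counts. Another 4427 tested genes were at 0 in at least 1 library. The median SE of the fitted log2 fold change was 0.61 for genes counted in every library and 2.60 for genes with zeros, so the second class carries much wider errors. No gene of the 10477 tested passed an adjusted p of 0.05 in edgeR (0%), and the smallest adjusted p was 0.612. Unadjusted p was under 0.05 for 122 genes that were higher in KO (1.16%) and 154 that were lower (1.47%). The genotypes did not overlap for 352 tested genes (3.36%), with KO higher for 166 (1.58%) and lower for 186 (1.78%), and 4916 genes were fitted above 0 (46.9%). DESeq2 called 149 genes (1.42%), limma-voom with sample weights called 12 (0.115%), and a fit over all 17 libraries called 33 (0.244%).

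Among the 6050 genes counted in every library, 97 were higher in KO at an unadjusted p under 0.05 (1.6%) and 120 were lower (1.98%). The CPM ranges of the genotypes did not overlap for 116 genes that were higher in KO (1.92%) and 100 that were lower (1.65%), or 3.57% in either direction. Fitted values were above 0 for 50.7% of the class. The median log2 fold change of the class was 0.01 and the median absolute value 0.34. The 10 leading genes in each direction, described next, are those with the smallest unadjusted p among genes without overlap. Since they were picked for that, their separation is a description. All 20 had adjusted p of 0.612 to 1 in edgeR and passed DESeq2, and 5 of them (Fam32a, AW112010, Pdcd10, Vps4a and Fkbp4) also passed in the fit over all 17 libraries.

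**Figure D2:**
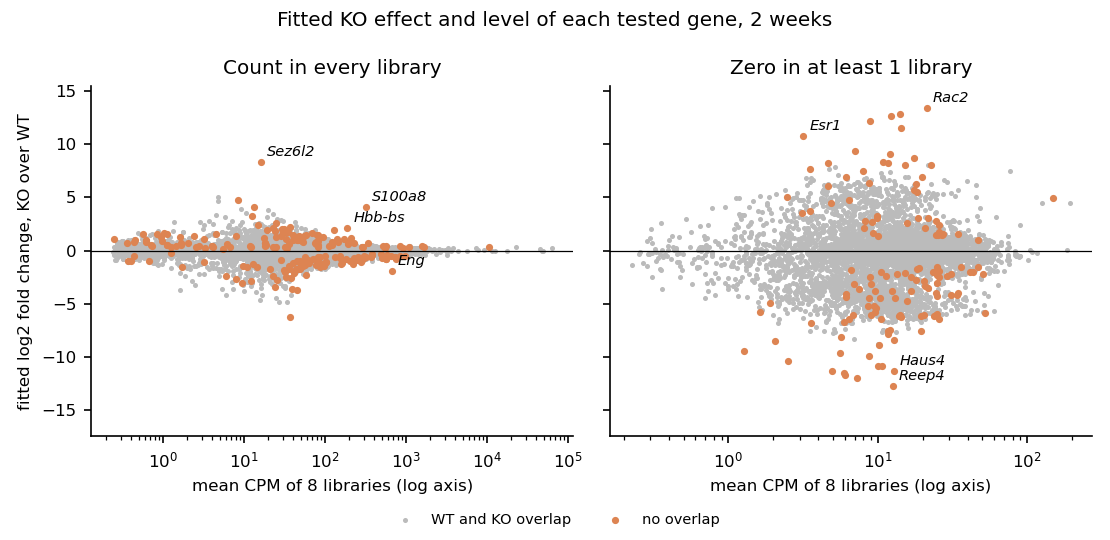
Each point is a tested gene, with its mean CPM over 8 libraries on a log x axis and its fitted log2 fold change, KO over WT, on the y axis; orange points are genes whose genotypes do not overlap. The median absolute fold change is 0.34 for genes counted in every library (left) and 1.41 for genes with a zero (right).

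Beside Eng, the leading genes that were lower in KO were Kctd20, Vps4a, Lamp1, Tubb2a, Rhoj, Flt1, Adam15, Map4 and Fkbp4. Kctd20, a BTB-domain protein gene, stood at 348, 363, 455 and 333 CPM in WT and at 168, 161, 225 and 179 in KO. All KO libraries were below all WT libraries, with a log2 fold change of -1.03 (SE 0.136) and an unadjusted p of 0.000117 in edgeR (adjusted p = 0.612). Flt1, which encodes the VEGF receptor VEGFR1, stood at 613, 594, 608 and 689 CPM in WT and at 346, 436, 389.5 and 383 in KO. Its libraries were tightly grouped within each genotype, and its log2 fold change was -0.69 (SE 0.128). Rhoj, a small GTPase gene expressed in endothelium, stood at 318, 342, 443 and 402 CPM in WT and at 253, 198, 260.1 and 203 in KO. Its log2 fold change was -0.71 (SE 0.134). Adam15, a membrane metalloprotease, stood at 891, 951, 920.5 and 849 CPM in WT and at 501, 561, 592 and 663 in KO, and its log2 fold change was -0.64 (SE 0.121). Exons of Kctd20, Adam15 and Lamp1 overlap other annotated genes, which makes their counts less certain.

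Vps4a encodes an ATPase that takes apart ESCRT-III, the machinery of membrane scission. It stood at 121, 164, 120.4 and 112 CPM in WT and at 35.1, 56.8, 46.5 and 34.4 in KO, with a log2 fold change of -1.57 (SE 0.28) in edgeR. The highest KO library was below the lowest WT library. At 4 weeks the 5 WT libraries averaged 109 ± 13.9 CPM and the 4 KO libraries 119 ± 10.8 (SD), and the difference between the effects at 4 and 2 weeks was 1.72 on the log2 scale (edgeR adjusted p = 0.0275). This difference passed for 14 of 13515 genes (0.104%), and since Vps4a was named for its separation at 2 weeks, the test is not independent of that choice. Exonic bases of Vps4a overlap Pdf, so reads shared with Pdf are uncertain. Of the 15 genes of the ESCRT and VPS4 list counted in every library, 8 were above 0 and 7 below, with a median of 0.11 that was below 0 under 7 of 21 alternatives, and Vps4a alone was lower at an unadjusted p under 0.05, against 1.98% of all genes counted in every library.

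The other leading lower genes were Lamp1, Tubb2a, Map4 and Fkbp4. Lamp1, a glycoprotein of the lysosomal membrane, averaged 333 ± 58.6 CPM over the 4 WT libraries and 196 ± 22.4 over the 4 KO libraries (SD), a log2 fold change of -0.76. Tubb2a, a beta-tubulin, averaged 362 ± 35.1 and 206 ± 54.5 CPM, a log2 fold change of -0.84. Map4, a microtubule-binding protein, averaged 720.2 ± 103 and 425 ± 32.7 CPM, a log2 fold change of -0.77. These 3 genes were lower in all 4 KO libraries than in any WT library. Fkbp4, a partner of the chaperone HSP90, stood at 265, 246, 324 and 429 CPM in WT and at 121, 163, 133 and 91.8 in KO. Its log2 fold change was -1.30 (SE 0.264), -0.88 in females and -1.71 in males.

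**Figure D3:**
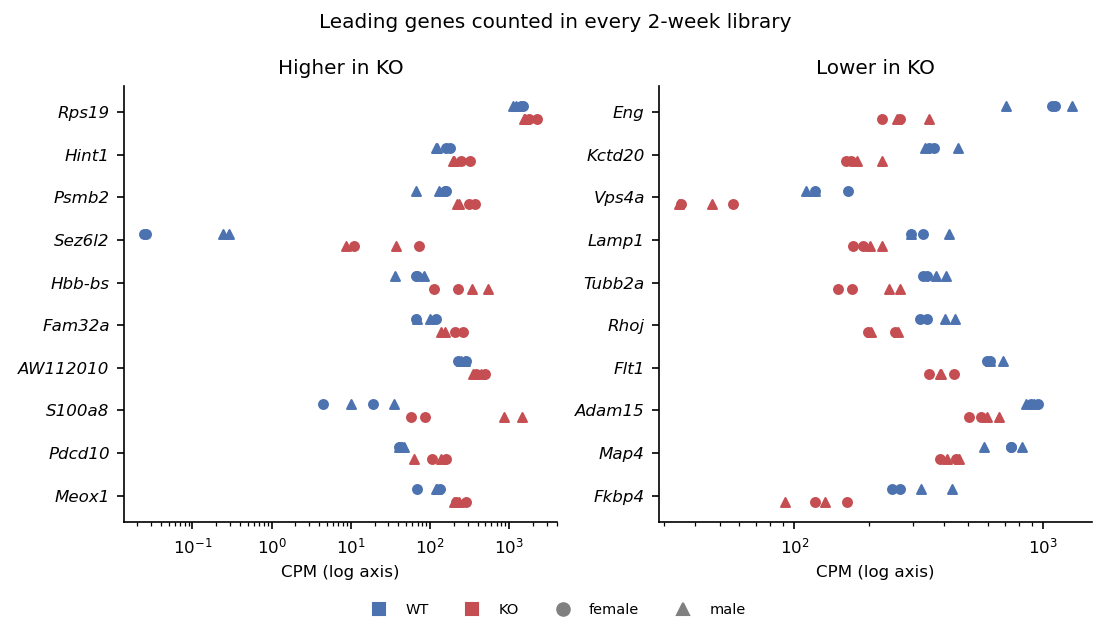
The CPM of each of the 8 libraries, on a log x axis, for the 10 leading genes higher (left) and lower (right) in KO; blue is WT, red is KO, circles are females and triangles males. The genes were chosen for having no overlap, and S100a8 shows the widest KO range, 57.0 to 1442 CPM.

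Among the leading genes higher in KO, Rps19 encodes a protein of the small ribosomal subunit. It stood at 1496, 1424, 1216 and 1106 CPM in WT and at 2274, 1795, 1545 and 1599.8 in KO, with a log2 fold change of 0.46 (SE 0.0881). The margin between the genotypes was narrow, between WT f1 and KO m2. The annotation holds 14 pseudogenes named after Rps19, to which its reads could be assigned or lost. Hint1, a small purine phosphoramidase, stood at 177, 159, 118 and 121 CPM in WT and at 325, 248, 197 and 201.2 in KO, a log2 fold change of 0.75 (SE 0.153). Psmb2, a subunit of the proteasome core, stood at 154, 162, 66.1 and 132 CPM in WT and at 375, 312, 219.9 and 232 in KO, a log2 fold change of 1.15 (SE 0.252).

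Pdcd10, also known as CCM3, is a gene whose loss in endothelium causes cerebral cavernous malformations. It stood at 41.1, 43.3, 46.6 and 40.9 CPM in WT and at 162, 107, 63.5 and 139.6 in KO. The WT libraries were nearly equal, and the KO libraries were all higher and spread more widely (log2 fold change 1.45, SE 0.348). At 4 weeks its level was 116 ± 12.3 CPM over 5 WT libraries and 121 ± 19.998 over 4 KO libraries (SD). Meox1, a homeobox transcription factor gene, averaged 111 ± 28.4 CPM in WT and 232 ± 38.1 in KO, a log2 fold change of 1.07. Fam32a averaged 88.1 ± 25.6 and 189 ± 55.2 CPM (log2 fold change 1.07), and AW112010 averaged 261 ± 27.1 and 417 ± 67.0 (log2 fold change 0.68).

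Sez6l2, a membrane protein gene known from neurons, was nearly absent from WT. Its counts were 1, 1, 8 and 11 in WT and 1921, 370, 258 and 1363 in KO, or 0.0263 to 0.292 CPM against 71.9, 10.9, 8.69 and 37.5. Every KO library lay above every WT library. WT f1 and f4 were under the floor of 3 counts, so the gene counts as present in every library through single counts, and its fitted fold is not given. At 4 weeks it reached 12.1 ± 10.2 CPM over 5 WT libraries and 12.3 ± 11.6 over 4 KO libraries (SD). Its exons overlap Gm21984.

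The remaining leading higher genes, Hbb-bs and S100a8, are markers of other blood cells. Hbb-bs, an adult beta-globin gene, stood at 67.6, 68.6, 84.2 and 36.6 CPM in WT and at 114, 227, 549.6 and 344 in KO. S100a8, a calcium-binding protein abundant in neutrophils, stood at 19.1, 4.50, 10.2 and 35.5 CPM in WT and at 57.0, 87.3, 1442 and 875 in KO. Both were highest in KO m2 and m3, the libraries with the highest neutrophil and erythroid sums. Without those libraries the log2 fold changes were 1.30 for Hbb-bs and 2.57 for S100a8, against 2.12 and 4.11 with them. Globin genes are near-identical in pairs, so reads may be split among them. All 4 erythroid markers counted in every library were above 0, with a median of 2.18, and 1.05 without KO m2 and m3. The part of other cells in the remaining results was not tested.

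The direction of a gene's difference moved with the length of its transcript. Among 4648 protein-coding nuclear genes counted in every library with a mean count of at least 50, the median log2 fold change was 0.18 for the 156 genes with up to 1000 exonic bases. It was 0.11 for 593 genes of 1000 to 2000 bases, -0.02 for 1491 genes up to 4000, -0.09 for 1388 genes up to 7000 and -0.12 for 1020 longer genes. The ratio of counts in genes up to 2000 bases to those over 4000, ribosomal protein genes left out, was 0.473, 0.391, 0.427 and 0.378 in WT and 0.591, 0.484, 0.436 and 0.471 in KO. The genotypes overlapped (two-sided exact permutation p = 0.0857). With a length trend fitted in each library, the log2 fold change was -1.90 for Eng, -0.92 for Kctd20, -0.54 for Flt1, 0.54 for Rps19 and 0.65 for Hint1. No gene passed in that fit (smallest edgeR adjusted p = 0.997), in which 107 genes counted in every library were higher and 100 lower at an unadjusted p under 0.05. The part of this trend in the results for single genes was not tested beyond that fit.

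The other receptors counted in every library did not differ between genotypes beyond their spread. Of 13 receptor genes listed, 9 were tested and 6 were counted in every library, with 3 above and 3 below 0 and a median of 0.00, against 0.01 for all genes of that class. This median ranged from -0.47 to 0.54 over the alternatives and was -0.45 without KO m2 and m3. Eng, the targeted gene, was the only one of the 6 with an unadjusted p under 0.05, and it was lower, against 1.98% of all genes counted in every library. Acvrl1, which encodes ALK1, stood at 64.8, 259, 128 and 283 CPM in WT and at 103, 199, 242 and 206 in KO (log2 fold change 0.01, SE 0.489). Bmpr2 stood at 2.55, 53.3, 67.6 and 40.0 CPM in WT and at 86.7, 30.9, 31.6 and 103 in KO (log2 fold change 0.73). The genotypes overlapped for both, and the 4 WT libraries of Bmpr2 spanned 2.55 to 67.6 CPM. Tgfbr2, the type II TGF-beta receptor, had a log2 fold change of 0.04, Tgfbr3, betaglycan, one of -0.01, and Acvr2a, an activin receptor, one of -0.26. Without 1 library the value changed sign for all but Bmpr2, and ranged from -0.24 to 0.53 for Acvrl1, 0.29 to 1.62 for Bmpr2, -0.34 to 0.47 for Tgfbr2, -0.93 to 0.56 for Tgfbr3 and -1.01 to 0.58 for Acvr2a. Tgfbr1, Acvr1b and Acvr2b were at 0 in at least 1 library.

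Of the SMADs and their targets, 14 of 17 were tested and 6 were counted in every library, 2 above and 4 below 0, with a median of -0.29. Id3, an inhibitor of basic helix-loop-helix factors and a BMP target, stood at 1058, 1108, 982 and 938 CPM in WT and at 1038, 793, 859.9 and 671 in KO. KO f1 lay within the WT range and the other 3 KO libraries below it (log2 fold change -0.29, SE 0.104), and Id3 was the only one of the 6 with an unadjusted p under 0.05, against 1.98% of all genes counted in every library. Id1 stood at 478, 708, 528 and 564 CPM in WT and at 666, 332, 366 and 494 in KO, a log2 fold change of -0.30 (SE 0.243). Smad7, the inhibitory SMAD, stood at 26.1, 19.2, 22.8 and 35.3 CPM in WT and at 22.2, 0.206, 12.7 and 1.07 in KO, and its log2 fold change was -1.59 (SE 1.49). Id2 (0.28), Smad1 (0.17) and Smad5 (-0.82) overlapped between genotypes. Without 1 library, Id1 ranged from -0.51 to -0.14, Id2 from 0.11 to 0.69, Smad1 from -0.41 to 0.74, Smad5 from -1.34 to -0.22 and Smad7 from -3.42 to -1.14, and the widest value of Smad7 was without KO f1. Tgfb3, a TGF-beta ligand with zeros, averaged 39.6 ± 11.5 CPM over the 4 WT libraries and 9.79 ± 11.5 over the 4 KO libraries (SD) without overlap. Its log2 fold change was -2.03 (SE 2.22), with an unadjusted p of 0.393 in edgeR. Of the 7 tested ligands it alone did not overlap, against 1.94% of tested genes with a zero that were lower without overlap.

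Genes of angiopoietin and VEGF signalling, which include receptors, the ligand Vegfc and the phosphatase Ptprb, lay below 0 for 8 of the 9 counted in every library, with a median of -0.25. The median ranged from -0.50 to -0.07 over the alternatives. With the length trend fitted it was -0.25, with 3 of the 9 above 0. Of all genes counted in every library, 50.7% were above 0. Flt1, above, and Tie1 were lower at an unadjusted p under 0.05, against 1.98% of those genes. Tie1, an endothelial receptor that pairs with the angiopoietin receptor Tek, stood at 616, 936, 602 and 714 CPM in WT and at 223, 392, 549.8 and 522 in KO. The genotypes did not overlap, and its log2 fold change of -0.81 was -1.36 in females and -0.25 in males. Tek itself had a log2 fold change of -0.48 (SE 0.465). Among tip-cell genes, 3 of 5 were above 0 with a median of 0.16. Aplnr, the apelin receptor, stood at 271, 288, 349.9 and 478 CPM in WT and at 182, 206, 229.6 and 223 in KO, a log2 fold change of -0.70 without overlap. Its ligand Apln, at 0 in WT f1, stood at 5.31, 65.9 and 24.6 CPM in the other WT libraries and at 150.1, 73.2, 55.5 and 119.5 in KO, and KO m2 lay within the WT range.

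Genes of cell junctions lay below 0 for 14 of 18 members counted in every library, with a median of -0.36 and 4 members lower at an unadjusted p under 0.05, against 1.98% of all genes counted in every library. Jam2, a junctional adhesion molecule, stood at 587, 779, 889 and 707 CPM in WT and at 404, 448, 664 and 433 in KO, with KO m2 inside the WT range (log2 fold change -0.61). Esam, another adhesion molecule of endothelial junctions, had a log2 fold change of -0.42, and Jup, which encodes plakoglobin, one of -0.39. Ctnna1, alpha-catenin, averaged 415 ± 34.8 CPM in WT and 340 ± 18.03 in KO and was the only junction gene without overlap, against 1.65% of all genes counted in every library. The 18 genes have a median exonic length of 4697.5 bases, and with the length trend fitted their median fold change was -0.33, with 2 members lower at an unadjusted p under 0.05. Without KO m2 and m3 it was -0.22.

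Arterial genes lay below 0 for 10 of 12 members, with a median of -0.51, and Notch genes above 0 for 6 of 7, with a median of 0.40 that was 0.23 without KO m2 and m3. Sox17, an arterial transcription factor, stood at 373, 338, 251 and 423 CPM in WT and at 301, 176, 180.3 and 189 in KO, with KO f1 inside the WT range (log2 fold change -0.73, SE 0.246). No Notch gene had an unadjusted p under 0.05, and Dll4, the main arterial Notch ligand, had a log2 fold change of 0.40. Endothelial transcription factors lay below 0 for 9 of 13, with a median of -0.28 that was 0.09 in males alone. Ets1, one of them, had a log2 fold change of -0.65. Without KO m2 and m3 the arterial median was -0.21.

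Niche factors that bone marrow endothelium supplies to blood stem cells were below 0 for all 4 members counted in every library, with a median of -0.50 that was -0.86 without KO m2 and m3. Kitl, stem cell factor, stood at 435, 447, 334 and 333 CPM in WT and at 277, 238, 288 and 192 in KO. The genotypes did not overlap (log2 fold change -0.63, SE 0.155), and Kitl was the only one with an unadjusted p under 0.05, against 1.98% of all genes counted in every library. Cxcl12, the chemokine that retains stem cells, stood at 954, 1482, 1102 and 1451 CPM in WT and at 943, 1128, 943 and 834 in KO, and KO f4 lay within the WT range (log2 fold change -0.38, and -0.24 without WT m3). Stromal cells also express Cxcl12. Their marker sum, which includes it, was 1826 to 2998 CPM in WT and 1743 to 1936 in KO.

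Ribosomal protein genes were above 0 for 82 of the 83 tested, all counted in every library, with a median of 0.27, and only Rpl13a lay below. Of these, 20 were higher at an unadjusted p under 0.05, against 1.6% of all genes counted in every library, and 11 were higher without overlap, against 1.92%. Their summed level was 52513, 50710.4, 52814 and 50226.9 CPM in WT and 70556, 59286, 54924 and 59956 in KO, so each KO library was above each WT library, by the least in m2. Rpl17 averaged 173 ± 18.4 CPM in WT and 278 ± 42.5 in KO, and Rps24 averaged 846 ± 28.6 and 1014 ± 22.8 (SD over 4 libraries each). The list was added after the values were seen and was drawn by symbol. It includes Rps19bp1 (log2 fold change 1.10), which encodes a binding partner of RPS19, and Rps27l, which is also in the p53 target list. With the length trend fitted the median was 0.24, with 79 of 83 above 0, and without KO m2 and m3 it was 0.31.

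The p53 target list was above 0 for 4 of 7 members counted in every library, with a median of 0.34. The median was 0.71 without KO m2 and m3 and ranged from 0.15 to 0.80 over the alternatives. Bax, which permeabilises mitochondria in apoptosis, stood at 74.7, 41.2, 54.6 and 34.4 CPM in WT and at 121, 121, 90.7 and 131 in KO. All KO libraries were above all WT libraries (log2 fold change 1.20, SE 0.327). Rps27l stood at 173, 114, 132 and 105 CPM in WT and at 460.5, 194, 198 and 171 in KO, with KO m3 inside the WT range. These 2 genes were the members higher at an unadjusted p under 0.05, against 1.6% of all genes counted in every library. Of the interferon-induced genes, 8 of 14 were above 0 with a median of 0.03 that was below 0 under 8 of 21 alternatives, and -0.033 without KO m2 and m3. Oasl2, an antiviral protein gene, stood at 191, 164, 169.9 and 76.9 CPM in WT and at 48.3, 12.5, 78.2 and 52.6 in KO, a log2 fold change of -1.73 (SE 0.593). Only KO m2 reached the lowest WT library, m3.

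In the other groups, no member counted in every library had an unadjusted p under 0.05, with 1 exception. Of all genes counted in every library, 1.6% were higher and 1.98% lower at that level. Basement membrane genes were below 0 for 10 of 13 (median -0.35), flow and caveolae genes for 8 of 10 (-0.24), and sinusoidal and venous genes for 5 of 7 (-0.17, with the other sign under 2 of 21 alternatives). Genes of the stress of cell isolation were below 0 for 8 of 11 (-0.25). Mitochondrially encoded genes had a median of 0.05 and glycolysis and hypoxia genes one of 0.03. Without KO m2 and m3 the medians were -0.13 for flow and caveolae, -0.34 for sinusoidal and venous, -0.11 for isolation stress, -0.14 for mitochondrially encoded and -0.10 for glycolysis and hypoxia genes. Cell cycle genes were above 0 for 4 of 5 with a median of 0.81, which was 0.05 without KO m2 and m3. All 6 genes of mesenchymal transition were above 0, with a median of 0.38 that ranged from 0.23 to 0.79 over the alternatives, and the exception was S100a4, at 0.414 ± 0.0742 CPM in WT and 0.817 ± 0.422 in KO.

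**Figure D4:**
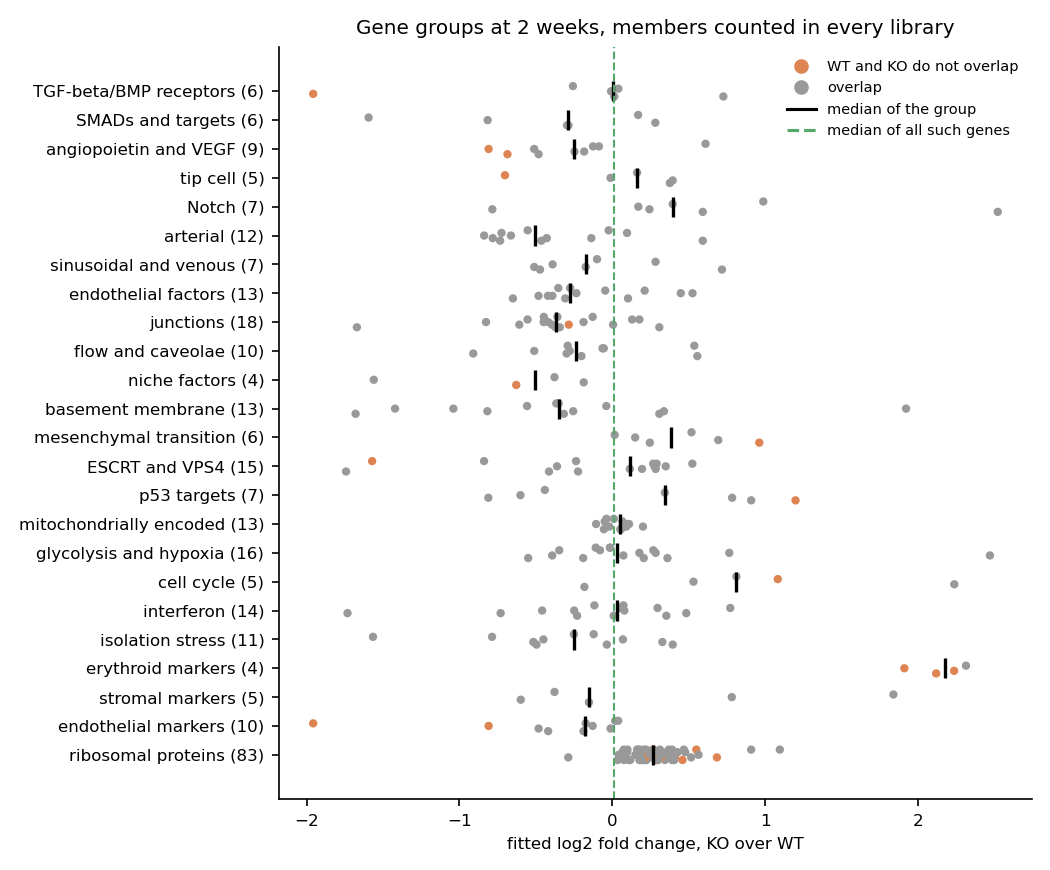
Each point is a gene counted in every library, placed by its fitted log2 fold change, KO over WT, in its gene group (number of genes in brackets); orange points do not overlap between genotypes, black bars are group medians and the dashed line is the median of all such genes, 0.01. Ribosomal proteins sit to the right (median 0.27), and junction and arterial genes to the left (-0.36 and -0.51).

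Genes with zeros were judged by how many libraries held more than 3 counts. Of 10981 genes that reached 10 CPM in a 2-week library, 5938 (54.1%) were at 0 in another 2-week library. At 4 weeks this held for 516 of 10460 (4.93%). The libraries of the time points also differed in mitochondrial share, which was 22.2 to 29.5% in the 2-week libraries but 4.66 to 8.99% in the later ones, and in genes with a count, 15996 to 21235 at 4 weeks, and the part of these in any value set across times was not tested. Among 4427 tested genes with a zero, 50 were higher in KO without overlap (1.13%) and 86 were lower (1.94%), or 3.07% in either direction, and unadjusted p was under 0.05 for 25 (0.565%) and 34 (0.768%). Fitted values were above 0 for 41.7% of this class. Of the 16308 genes over 3 counts in any library, 6 exceeded 3 counts in all 4 KO libraries and in no WT library (0.0368%), and 23 did so the other way (0.141%). In patterns that rest on a single library, 1282 genes exceeded 3 counts in 1 KO library alone and 1202 in 1 WT library alone.

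**Figure D5:**
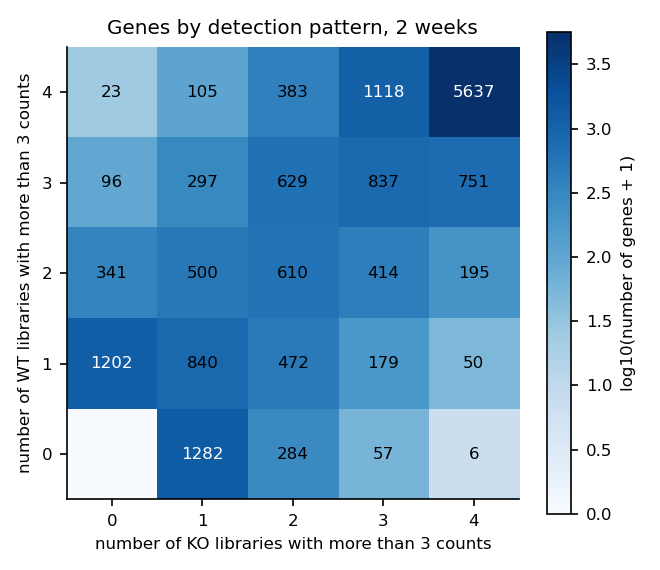
Each cell gives how many genes exceeded 3 counts in the given number of WT (y axis) and KO (x axis) libraries, and the colour is log10 of that number plus 1. The corner with all 8 libraries holds 5637 genes, and the corners for 1 genotype alone hold 23 (WT) and 6 (KO).

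The 6 genes found in KO alone were Esr1, Rac2, Ces2e, Nup37, Hdac6 and Zfp810, none of whose exons overlap another gene. Esr1, the oestrogen receptor alpha, which is also the receptor part of CreERT2 in its human form, was at 0 in all 4 WT libraries and at 4.79, 7.01, 6.63 and 6.85 CPM in KO. Its KO counts were 128, 238, 197 and 249, and its KO mean was at least 68.7-fold higher than the floor of 3 counts per library in WT. Counts per gene cannot tell reads of the mouse gene from reads of a transgene. At 4 weeks Esr1 reached 0.922 ± 1.22 CPM over 5 WT libraries and 6.15 ± 2.41 over 4 KO libraries (SD). Rac2, a small GTPase gene of blood cells, was at 0 in WT and at 28.0, 27.3, 101 and 13.3 CPM in KO. Its KO mean, which m2 raised, was at least 461-fold above the WT floor of 3 counts. Such folds rest on group means and on a floor that covers counting error only, so single libraries can lie lower. Rac2 was highest in KO m2, which also had the highest neutrophil sum, and lowest of the KO libraries in m3, which had the next highest. The part of neutrophil RNA in Rac2 was not tested, and at 4 weeks it averaged 1.07 ± 1.65 CPM in WT and 2.27 ± 1.01 in KO.

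Ces2e, a carboxylesterase, was at 0 in WT and at 36.7, 41.4, 28.1 and 6.74 CPM in KO. Its KO mean was at least 307-fold above the WT floor of 3 counts. At 4 weeks both genotypes expressed it, at 31.2 ± 15.9 CPM over 5 WT libraries and 39.8 ± 28.2 over 4 KO libraries (SD). Nup37, a nuclear pore protein, stood at 14.7, 14.3, 14.9 and 26.6 CPM in KO against 0 in WT, with a KO mean at least 192-fold above that floor. At 4 weeks Nup37 instead averaged 15.2 ± 8.00 CPM in WT and 6.77 ± 4.60 in KO. Hdac6, a deacetylase of tubulin, stood at 1.16, 40.8, 54.6 and 2.20 CPM in KO against 0 in WT, so 2 of the 4 KO libraries were low, and at 4 weeks it averaged 11.2 ± 5.25 CPM in WT and 8.63 ± 10.6 in KO. Zfp810, a zinc-finger gene, had 1 count in WT m3 and stood at 21.9, 51.6, 0.640 and 40.9 CPM in KO. At 4 weeks it was present in both genotypes, at 12.9 ± 6.30 and 8.61 ± 2.51 CPM.

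Of the 23 genes found in WT alone, 13 passed the filter on low counts and were tested. Of the same 23, 18 were protein coding, 11 had exons that overlap another gene, 12 were at 0 in all KO libraries and 16 exceeded 3 counts in all 9 libraries at 4 weeks. Prkcq, protein kinase C theta, stood at 47.8, 21.2, 6.23 and 9.97 CPM in WT, and KO f1 held its only KO count. Haus4, a subunit of the augmin complex of the spindle, stood at 28.7, 18.3, 45.5 and 9.44 CPM in WT, with 1 count in KO m3. Ddx60, an antiviral helicase, stood at 38.5, 18.6, 11.8 and 11.5 CPM in WT, with 1 count in KO f1. All 3 were present at 4 weeks in both genotypes, with means of 9.68 to 18.3 CPM.

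Prickle4, of the planar polarity family, stood at 2.82, 1.13, 5.03 and 1.17 CPM in WT and 0 in KO. Its WT mean was at least 22.6-fold above the KO floor of 3 counts, and its exons overlap Gm21981 and Tomm6os. Gm37804, a transcript model inside an exon of Tgfb3, stood at 4.50, 3.20, 3.81 and 8.67 CPM in WT and 0 in KO, with a WT mean at least 44.9-fold above that floor. Its reads and those of Tgfb3 cannot be separated here. For Reep4, an endoplasmic reticulum protein gene, the WT mean was at least 224-fold above the KO floor. For Tmem175, a lysosomal channel gene whose exons overlap Dgkq, it was at least 130-fold above, and for Itsn1, an endocytic scaffold gene, at least 87.4-fold. C1qb, a complement gene of macrophages, stood at 0.215 to 21.8 CPM in WT and at 0 in all KO libraries, and it did not pass the filter on low counts. The macrophage marker sum, by contrast, was highest in KO m2 and m3.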

How the data were processed

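RNA of sorted bone marrow endothelial cells was sequenced with SmartSeq2. Per the submitters' processing notes, reads were handled with cutadapt, STAR and HTSeq 0.6.1p1 on GRCm38 (mm10), and the authors deposited whole-number counts for each gene, not normalized. The annotation and strand setting are not given in the sources used here. Symbols and exons came from GENCODE M21. Without molecular identifiers, the floor of 3 counts (0.0734 to 0.112 CPM) covers counting error only, whereas SEs and p-values come from the spread between libraries.

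KO was compared with WT in the 8 libraries at 2 weeks with the quasi-likelihood test of edgeR 4.0.16 (R 4.3.3), with TMM scaling, filterByExpr on genotype, sex as covariate and Benjamini-Hochberg adjustment over 10477 genes. CPM used library totals. The effects at 4 and 2 weeks were compared in 1 edgeR fit of all 17 libraries. Single values used two-sided exact permutation tests, for Eng on log2(CPM + 2). The edgeR step was tested on simulated data.

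Named genes were Eng and the gate markers; the 10 smallest p-values per direction among genes counted in every library whose genotypes did not overlap (mean count 50 or more); 6 per direction among genes of 1 genotype alone; and leading members of the gene lists. Other genes named were chosen after their values were seen. The members and lists were chosen with earlier results of these data known. Alternatives were DESeq2 1.42.0, limma 3.58.1 voom, other scalings and filters, sex, pairing and length terms, and leaving out libraries.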

Additional observations from a re-analysis of the deposited data

Results flagged for a closer look

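Values far from the other 3 libraries of their genotype, by Dixon's criterion, were found for 30 of 251 groups of 4 examined. Chance gives about 1 in 20 for normally distributed values, which CPM with zeros are not. Genes named for at most 3 counts in 1 genotype can be flagged by a single count, so these rates cannot be compared. In KO f1, the highest were Cdh5 at 323 CPM (next 199.5), Sox17 at 301 (next 189), Rps27l at 460.5 (next 198), Nr4a1 at 75.2 (next 21.3), Acvr1b at 18.01 (next 0.495) and Acvr2b at 19.6 (next 0). In the same library Smad5 at 4.34 (next 44.6) and Vim at 1264 (next 1818) were the lowest. KO f4 was lowest for Pecam1 at 688 CPM (next 988) and highest for S100a4 at 1.44, Tagln at 296 and Pf4 at 16.7. KO m2 was highest for Rac2 at 101 CPM, Smurf1 at 50.2, Il6st at 133, Selp at 2.59 and Jam2 at 664. KO m3 was highest for Nup37 at 26.6 CPM and Gper1 at 0.385. In WT, f1 was highest for Itga2b at 56.8 CPM (next 2.74), f4 was highest for Tagln at 166 and lowest for Emcn at 226, and m3 was highest for Top2a at 0.769 and the progenitor sum at 6.23 and lowest for Klf6 at 392. A single count set the value of Zfp810 in WT m3 (0.0265 CPM), Prkcq and Ddx60 in KO f1 (0.0374 each), Haus4 in KO m3 (0.0275) and B230307C23Rik in KO m2 (0.0337).

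The KO effect at 4 weeks less that at 2 weeks, on the log2 scale, passed edgeR's test for 7 of the genes named by rule. It was 1.72 for Vps4a (adjusted p = 0.0275), -11.98 for Zfp810 (0.0248), -12.48 for Ces2e (0.00404), 10.81 for Prkcq (0.00751), 10.82 for Haus4 (0.00355), 10.26 for Ddx60 (0.0178) and 10.59 for Gm37804 (0.0322). This test also passed for Reep4 (adjusted p = 0.00185), Tmem175 (0.00355), Itsn1 (0.00404) and C1qb (0.0404), genes of WT alone that were named after their values were seen. All of these genes were named for their difference at 2 weeks, so these tests restate that choice in part and are not independent support. Apart from Vps4a, they are at or near 0 in 1 genotype at 2 weeks, and the fitted sizes depend on the prior count.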

How the results depend on the processing

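The count of genes past an adjusted p of 0.05 depended on the tool and on the libraries fitted. It was 0 in edgeR over the 8 libraries, also without any 1 library (0 to 0), and DESeq2 called 54 higher and 95 lower, of which 54 were counted in every library and 95 had zeros. Limma-voom called 3 higher and 9 lower, all 12 with zeros, and the edgeR fit over all 17 libraries, with 13515 genes tested, called 13 higher and 20 lower, 6 counted in every library and 27 with zeros. The log2 fold change of Eng was -1.96 in DESeq2 (adjusted p = 1.63e-13), -2.19 to -1.79 without 1 library or without KO m2 and m3, and -2.20 in females and -1.71 in males alone, and its adjusted p ranged from 1.63e-13 to 1 over the alternatives. Pecam1 ranged from -0.29 to 0.03 without 1 library, above 0 without WT m3 (0.027) and without WT f4 (0.014), and Ly6a changed sign with the length trend (-0.036). Among 81 further genes of the lists, 31 changed sign under some alternative (107 of 1674 values). Genes of KO alone numbered 15 under 0 counts against at least 1, and genes of WT alone 12 under at most 3 counts against at least 30. Among the 116 genes named by rule, those whose effects differed between times numbered 7, 23 with DESeq2 and 7 to 10 without 1 library.

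Same-numbered libraries did not deviate together (correlations 0.034, -0.030, -0.020 and 0.042), so the numbers were not taken as pairs. With the replicate block no gene passed, Eng stood at -1.93 (adjusted p = 1), and 102 genes counted in every library were higher and 116 lower at an unadjusted p under 0.05. The strict filter leaves no genes with zeros. Frequent zeros and the spread of 4 libraries limit what could be detected.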
